A study of Mus musculus with 18 samples.

Results

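Cells that received a control siRNA were compared with untransfected cells over all genes, using 6 of the 18 RNA-seq libraries of the series. The 6 libraries were chosen by their column labels and not by a measured value. Earlier results of these data were known when they and the gene lists were chosen. All 6 libraries came from mesenchymal stem cells (MSC) of male C57BL/6J mice. MSC are adherent progenitors of the bone marrow that can give rise to fat or bone cells. The primary cells had been harvested from 6 mice, and the labels do not tie a library to an animal. The 3 control libraries came from the experiment with actin drugs and had the treatment given as none. The 3 siControl libraries came from the knockdown experiment, where they served as the reference for an siRNA against Arp4, the product of Actl6a. Their title names a control siRNA and their treatment field reads siRNA mock, and the methods describe an overnight transfection with a lipid reagent in serum-free medium that was replaced before further treatment. The other 12 libraries held cells treated with CK666, which blocks the actin-branching complex Arp2/3, cells treated with cytochalasin D (CytoD), which caps actin filaments, and cells given the Arp4 siRNA with or without CK666 (siArp4 and siArp4+CK666). No untransfected library came from the knockdown experiment. The transfection, the serum-free period and the experiment therefore cannot be told apart in any difference between siControl and control.

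Short interfering RNAs are loaded into Argonaute proteins, which cut or silence transcripts that pair with the guide strand. Double-stranded RNA in the cytosol or in endosomes can also be bound by sensors such as RIG-I, MDA5, PKR and the Toll-like receptors, and this route ends in interferon signalling and in the genes that interferon switches on. Lipid reagents load the endosomes and lysosomes, and the withdrawal of serum removes growth factors that keep fibroblast-like cells in the cell cycle.

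The deposited table held estimated counts for 54347 genes, of which 23325 had a count in at least 1 of the 6 libraries. Library totals ran from 19975326 to 21448992 in control and from 20284326 to 21821871 in siControl, so depth was similar between groups. A normalized count is an estimated count divided by the DESeq2 size factor of its library, and values are listed below in the order of replicates 1, 2 and 3. The cell type label was checked against markers. Of 16 MSC markers 12 were tested, and Cxcl12, Itgb1, Prrx1, Pdgfrb and Pdgfra were among the abundant genes of both groups (Cxcl12 at 32726 to 72851 and Pdgfra at 1870.5 to 4168 normalized counts), whereas Thy1 was at 0 and Nt5e at 1.88 or below in all 6 libraries. The leukocyte gene Ptprc, the macrophage genes Adgre1, Itgam, Tyrobp, C1qa and C1qb, the endothelial genes Cdh5 and Tie1, the epithelial genes Epcam and Cdh1 and the muscle gene Pax7 were at 0 in all 6. Other members of these lists were read in all 6, given here with all 18 libraries scaled together. The macrophage genes Cd14, Csf1r, Cd68, Lyz2 and Mrc1 lay between 14.2 and 186. The endothelial gene Egfl7 lay between 40.9 and 169, and the epithelial genes Krt19 and Krt7 at 323 to 2389 and 22.5 to 146. The MSC markers Lepr, Mcam, Alcam and Grem1 lay at 25.3 or below on that scale. Actl6a, the target of the other siRNA, was read at 938, 923 and 866 normalized counts in control and at 729, 1177 and 859 in siControl, and the groups overlapped (log2 fold change 0.02 ± 0.25 SE, DESeq2 adjusted p = 0.96).

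The siControl libraries stood far apart from each other, and this bears on every result below. On variance stabilized values of 13065 expressed genes the Euclidean distances between control replicates were 38.4, 37.7 and 38.2, and those between siControl replicates were 127 for replicates 1 and 2, 71.6 for 1 and 3 and 77.0 for 2 and 3. The mean distance was thus 2.41 times as large in siControl. The 3 siControl libraries lay 94.6, 157 and 116 from the centre of the controls, against 21.8 to 22.2 for the control libraries themselves. The first principal component over the 1000 most variable genes carried 78.6% of the variance and placed siControl 1 nearest to the controls, siControl 2 farthest away and siControl 3 between them, while the second (13.4%) separated siControl 1 from siControl 2. The biological coefficient of variation, estimated by edgeR within a group, was 0.376 in siControl and 0.0988 in control, and in the other 4 groups it ran from 0.0970 in CytoD to 0.212 in CK666. Gene by gene, the SD of log2(normalized count + 1) was larger in siControl than in control for 9277 of 10286 genes averaging at least 100 normalized counts (90.2%), with medians of 0.402 and 0.0939.

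**Figure D1:**
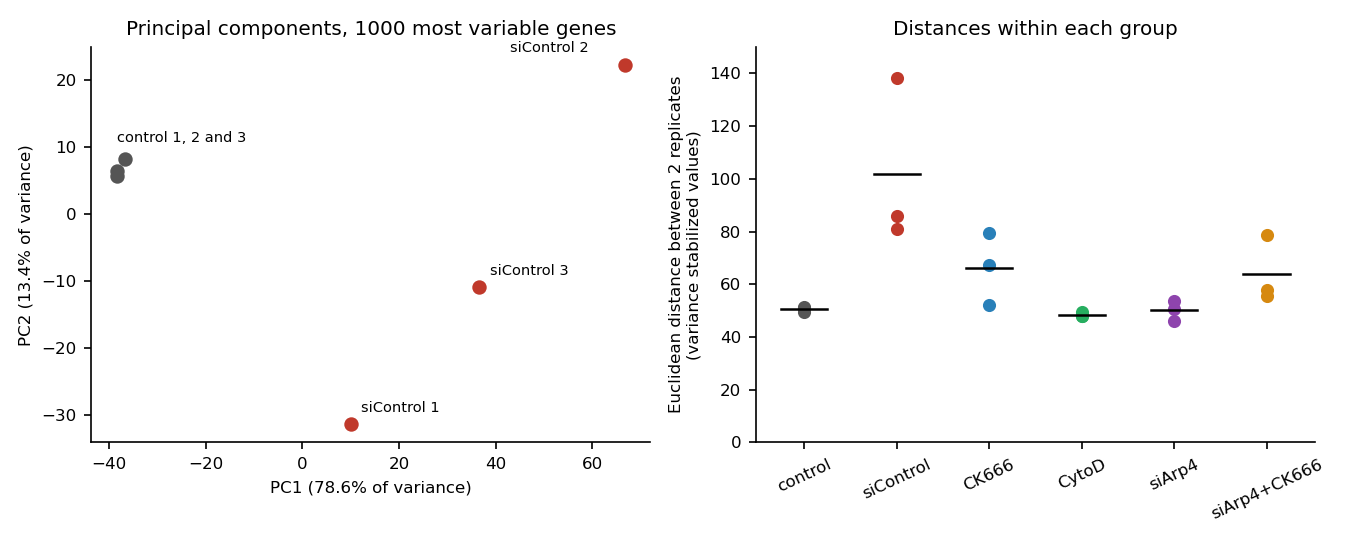
The left panel places the 6 libraries on the first 2 principal components of variance stabilized values, and the right panel shows the distance between each pair of replicates within the 6 groups on values of all 18 libraries (points, with a line at the mean of the 3 pairs). The controls lie on top of each other while siControl 1, 2 and 3 spread along both components, and the 3 siControl distances lie above every distance within the other groups.

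Part of the spread followed transcript length. Among 10030 protein-coding genes averaging at least 100 normalized counts, sorted into 8 equal groups by the length of the transcript with the longest coding sequence, the shortest genes stood at a median log2 difference from the control mean of 0.25 in siControl 1, 1.55 in siControl 2 and 0.93 in siControl 3. The longest genes stood at -0.29, -1.13 and -0.85. Control libraries stayed between -0.08 and 0.06 in every group of genes. Across these genes Spearman's rho between the log2 difference and length was -0.21, -0.58 and -0.55 in siControl 1, 2 and 3, which describes genes of a single library and not replicates. GC content behaved alike in siControl 2 and 3, where the difference rose from -0.97 and -0.43 in the genes of lowest GC content to 0.73 and 0.33 in those of highest, and stayed between -0.16 and -0.02 in siControl 1. Smooth trends on length and GC content took up 27.6% of the variance of the log2 differences in siControl 2, 18.6% in siControl 3 and 2.30% in siControl 1, against 0.227% to 3.65% in control. Length trends also occurred elsewhere in the series, with rho of -0.46 in CK666 1 and -0.36, -0.35 and -0.25 in siArp4 1, 2 and 3. RNA quality was not part of the files, and its part in these trends was not tested.

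**Figure D2:**
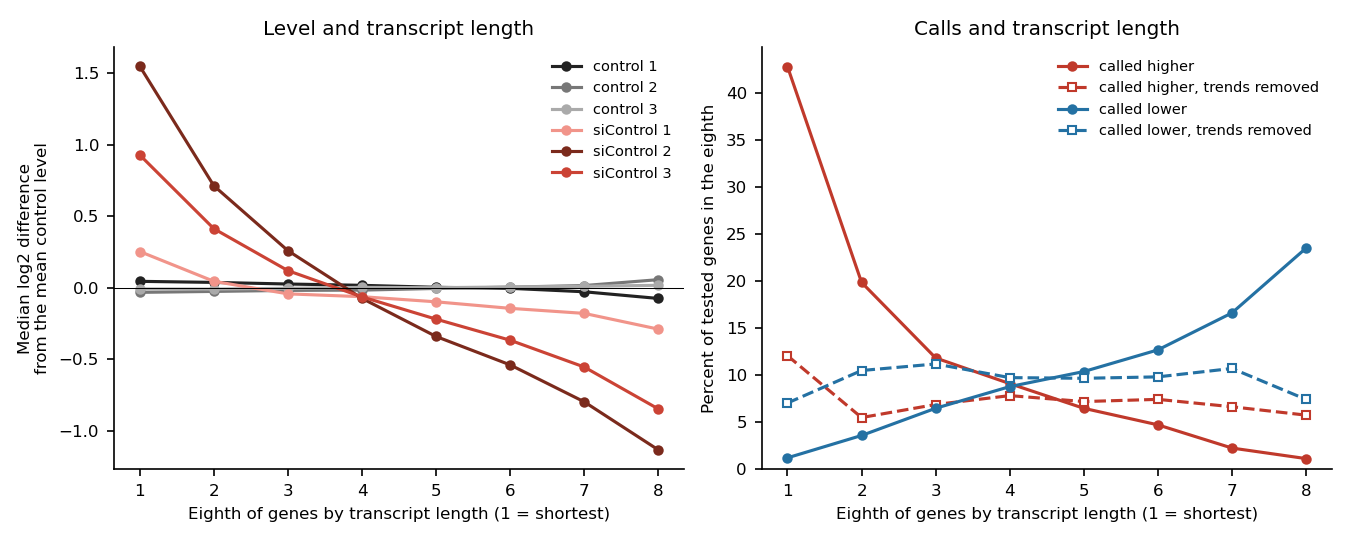
The left panel gives the median log2 difference from the mean control level for 8 groups of genes ordered by transcript length, 1 line per library, and the right panel gives the percent of tested genes called higher or lower in each group, by the fit as deposited (solid) and after length and GC trends were removed per library (dashed). In siControl 2 and 3 the lines fall from short to long genes, and the solid call rates follow them, from 42.8% called higher among the shortest to 23.5% called lower among the longest.

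DESeq2 called 2886 of 13613 tested genes (21.2%) at an absolute log2 fold change over 1 and an adjusted p below 0.01, of which 1667 (12.2%) were higher in siControl and 1219 (8.95%) lower. Called genes followed length: those called higher had a median transcript length of 1560 bases and those called lower 4247, against 2851 over all tested genes. With the trends on length and GC content removed, 1095 genes of 14457 were called higher (7.57%) and 1193 lower (8.25%), and the median lengths drew together at 2725 and 2833 bases. Without siControl 2, 1230 genes of 12980 were called higher (9.48%) and 1143 lower (8.81%), and without siControl 1 the counts were 2359 higher and 2090 lower. Leaving out control 2 or control 3 gave 1103 and 1084 higher genes, and 873 and 854 lower ones. edgeR's quasi-likelihood test, run on 12987 genes, called 1198 (9.22%), of which 597 were higher (4.6%) and 601 lower (4.63%). To mark genes whose call did not hang on these choices, a set was formed after the data were seen of genes called in the same direction by DESeq2, by edgeR, by limma-voom, with the trends removed and with each of the 6 libraries left out in turn. It held 372 genes called higher and 372 called lower (2.73% of tested genes each), and they are described below as called in all 10 fits. Genes whose siControl libraries all lay above the controls made up 26.4% of tested genes and those with all below 27.2%, so a lack of overlap was common and set no gene apart by itself. Counts of called list members below stand against the shares of 12.2% higher and 8.95% lower.

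The largest falls were seen in all 3 siControl libraries. Timp3, an inhibitor of matrix metalloproteases held in the matrix, was read at 1101, 1358 and 1292 normalized counts in control and at 80.6, 47.3 and 54.4 in siControl (log2 fold change -4.35 ± 0.28 SE, DESeq2 adjusted p = 4.0e-50). Siglecg, a sialic acid-binding lectin best known from B cells, was read at 2184, 1986 and 2138 against 108, 184 and 120.3 (-3.95 ± 0.27, adjusted p = 1.0e-45). Both genes fell in siControl 1 as in siControl 2 and 3. On build GRCm38 Timp3 lies at chr10:86300372-86349506 (plus strand) and Siglecg at chr7:43408204-43418358 (plus strand). Lgr5, an R-spondin receptor that marks stem cells of several epithelia, was read at 349, 433 and 431 against 51.7, 11.8 and 20.1 (-3.83 ± 0.49, adjusted p = 3.4e-13). Zfp469, which the annotation lists as a lincRNA, had a log2 fold change of -3.54 ± 0.24 (adjusted p = 1.7e-47) and shares bases on the same strand with the transcript model Gm20388. Rab7b, a GTPase of late endosomal traffic, was read at 1045, 1079.7 and 1159 against 141, 81.4 and 90.7 (-3.38 ± 0.28, adjusted p = 5.0e-31). Spag5, a spindle protein, Ppme1, which demethylates the phosphatase PP2A and overlaps C2cd3 on the opposite strand, Raph1, an actin regulator of the lamellipodium, Sema3c, a secreted semaphorin, and Pole, the catalytic subunit of DNA polymerase epsilon, had log2 fold changes between -2.97 and -2.81. Each of these 10 genes was called in all 10 fits. The exception among the falls described here was Serpinb9c, a serpin with close paralogs, at 312, 478 and 242 against 78.0, 31.5 and 30.6 (-2.87 ± 0.47, adjusted p = 2.6e-08), whose call was lost with limma-voom.

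Among the largest rises, Rgs2, which speeds the shut-off of G protein signals, was read at 12.2, 23.8 and 14.2 in control and at 499.6, 497 and 473 in siControl. The siControl values were nearly equal and lay far above the controls (log2 fold change 4.87 ± 0.33, adjusted p = 2.6e-46), and the gene lies at chr1:143999338-144004161 on the minus strand. Slc40a1, the iron exporter ferroportin, was read at 122, 114 and 104 against 3339, 1619.6 and 2478 (4.45 ± 0.32, adjusted p = 2.6e-40). Bmf, a BH3-only protein that promotes apoptosis, was read at 42.3, 50.5 and 64.9 against 1194, 826 and 864 (4.20 ± 0.30, adjusted p = 2.2e-42). In Slc40a1 and Bmf the highest value was that of siControl 1, the library nearest to the controls over all genes. Pi15, a secreted peptidase inhibitor, rose by 4.27 ± 0.53 (adjusted p = 8.1e-14) and Hopx, an atypical homeodomain protein, by 4.18 ± 0.43 (adjusted p = 3.5e-20). Bc1, a short RNA polymerase III transcript of 168 bases, was read at 5.64, 0 and 3.04 against 115, 697 and 342 (7.05 ± 0.84, adjusted p = 4.1e-15), with siControl 2 highest. These genes, with Psmb8, Psmb9 and Oasl2 described below, were called in all 10 fits. Gp1bb, a platelet glycoprotein subunit whose exons overlap those of Sept5 on the same strand, went from 33.9, 21.9 and 27.4 to 89.9, 1084 and 289, and its call was lost with edgeR (adjusted p = 0.017).

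**Figure D3:**
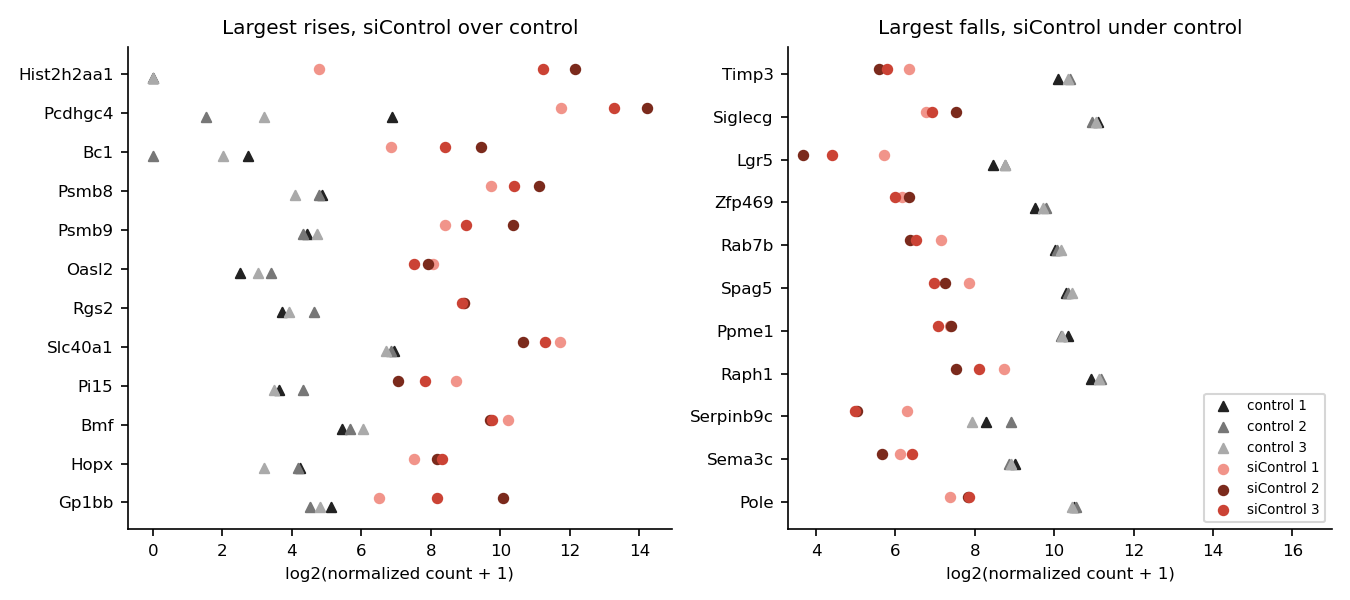
Points give log2(normalized count + 1) in each of the 6 libraries (triangles for control, circles for siControl) for the 12 largest rises on the left and 11 of the largest falls on the right. The control and siControl points do not overlap for any of these genes by the way they were chosen, and the siControl points of Rgs2 lie close together.

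The remaining pair of large rises was uncertain, because these genes share sequence with copies or neighbours and estimated counts can be split between them. The libraries do not mark strand, so reads of overlapping genes on opposite strands cannot be told apart either. Hist2h2aa1 was at 0 in the 3 controls and at 26.3, 4500.1 and 2402 in siControl, which is at least 795-fold higher when the mean is set against a floor of 3 counts per library (at least 418-fold without siControl 2), while its near-identical copy Hist2h2aa2 was read at 259.6, 212 and 257 in control and at 1039, 0 and 0 in siControl. The sum of both copies was 259.6, 212 and 257 against 1065, 4500.1 and 2402. Pcdhgc4, which shares its last exons with the rest of the gamma-protocadherin cluster, was read at 118, 1.9 and 8.11 against 3449, 19061 and 9938, whereas the sum over the 22 genes of the cluster was 11566, 12808 and 12291 against 15186, 19313 and 14374. Most of the 8 genes with the widest spread within siControl were at 0 in 1 or 2 siControl libraries. Chtf8 was read at 1450.4, 0 and 802 in siControl and Exosc6, at 0 in the 5 other libraries, at 1011 in siControl 2, and the sum of Exosc6 and both Chtf8 identifiers was 2214, 2682 and 2489.7 in control and 1743, 2729.5 and 1704 in siControl. Nnt, Atp7a and Dgkq were likewise at 0 in siControl 2 only, against 386 and 924, 763 and 48.7, and 499 and 174 in siControl 1 and 3. Another Nnt identifier, averaging 596 normalized counts over the 6 libraries, shares bases with this entry on the same strand. Dgkq shares bases with Tmem175 and Idua on the other strand. A split of counts was not tested for these genes. Ptprcap, which shares bases with Coro1b on its own strand and with Rps6kb2 on the other, was read at 688 in siControl 2 and at no more than 3.76 elsewhere. Rpgrip1, antisense to Supt16, went from 12.2, 32.4 and 12.2 in control to 3.39, 1951 and 364. For 39 genes DESeq2 gave no p because a single library dominated, and in 21 of them that library was siControl 2.

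Interferon-stimulated genes, the effectors of the antiviral state, were higher in siControl. Of 36 tested members 22 were called higher and none lower, and the median log2 fold change was 2.19, against 0.05 over all tested genes. The median was 2.17, 2.0 and 1.69 in siControl 1, 2 and 3, highest in the library nearest to the controls. With the trends removed 22 were called and without siControl 2 24 were, while 10 members were called in all 10 fits. Oasl2, an oligoadenylate synthetase-like protein, was read at 4.7, 9.52 and 7.1 in control and at 266, 243 and 181 in siControl (log2 fold change 5.02 ± 0.45, DESeq2 adjusted p = 8.0e-27). Gbp7, a guanylate-binding GTPase that attacks vacuoles of pathogens, was read at 0, 1.9 and 0 against 141, 40.7 and 65.9 (7.01 ± 1.21, adjusted p = 1.2e-07). Rsad2, the antiviral enzyme viperin, was at 0 in the 3 controls and at 192, 19.7 and 29.6 in siControl, at least 27.7-fold higher against the floor, or at least 8.49-fold without siControl 1. Zbp1, a sensor of Z-form nucleic acids, was also at 0 in control and at 12.7, 57.8 and 43.9 in siControl, at least 13.1-fold higher. The calls of Rsad2 and Zbp1 were lost with edgeR (adjusted p = 0.026 and 0.012).

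Many interferon-stimulated promoters carry the interferon-stimulated response element, so the 250 bases before the annotated start were searched on both strands for its core, which is GAAA followed by any 2 bases and GAAA again. RefSeq promoters (build GRCm38.p6) were matched by symbol for 18 of the 22 called members, and 9 of the 18 (50%) held the core, against 3.04% of 27025 promoters in the table and 5 of 14 matched members that were not called (35.7%). The element read by STAT dimers, TTC and GAA with 3 bases between them, was in 2 of the 18 (11.1%) and in 7.18% of all promoters. It was in 3 of the 14 members that were not called (21.4%). A match describes letters and is not shown to be a used site. The 4 promoters below are those with the core among called members of the interferon-stimulated and antigen presentation lists with the largest fold change, with every copy of the core in capitals (on the opposite strand it reads TTTC, 2 bases and TTTC). The copy nearest to the start began 120, 53, 59 and 85 bases before it in Rsad2, Gbp7, Gbp2 and Ifit1. Gbp2 and Ifit1, which were chosen for this display after their values were seen, had log2 fold changes of 4.05 and 3.63.
Rsad2, chr12:26456453-26456702, minus strand: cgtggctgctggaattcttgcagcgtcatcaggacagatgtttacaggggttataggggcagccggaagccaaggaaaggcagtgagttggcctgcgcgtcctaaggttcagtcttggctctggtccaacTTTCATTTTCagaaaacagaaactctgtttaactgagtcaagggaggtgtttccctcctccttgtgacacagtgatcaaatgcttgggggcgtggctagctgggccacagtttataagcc
Gbp7, chr3:142530086-142530335, plus strand: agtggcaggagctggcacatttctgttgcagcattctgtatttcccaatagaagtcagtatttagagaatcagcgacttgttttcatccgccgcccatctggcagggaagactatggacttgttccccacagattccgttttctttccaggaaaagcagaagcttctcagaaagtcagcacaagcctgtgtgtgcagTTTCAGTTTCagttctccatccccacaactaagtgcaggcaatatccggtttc
Gbp2, chr3:142620413-142620662, plus strand: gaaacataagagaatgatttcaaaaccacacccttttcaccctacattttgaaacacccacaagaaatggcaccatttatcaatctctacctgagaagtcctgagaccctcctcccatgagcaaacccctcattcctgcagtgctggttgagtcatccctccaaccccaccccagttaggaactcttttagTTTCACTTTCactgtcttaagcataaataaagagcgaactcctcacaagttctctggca
Ifit1, chr19:34640639-34640888, plus strand: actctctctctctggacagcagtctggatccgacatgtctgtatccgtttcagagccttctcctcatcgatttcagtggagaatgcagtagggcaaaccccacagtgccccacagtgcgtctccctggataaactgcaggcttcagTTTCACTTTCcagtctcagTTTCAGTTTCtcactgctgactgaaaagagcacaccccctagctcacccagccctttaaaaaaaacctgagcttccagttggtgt

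Genes of antigen presentation on MHC class I, which shows peptides to T cells, were higher as well, most of all in siControl 2. Of 12 tested members 9 were called higher and none lower (median 2.47), with the same count of 9 once the trends were removed, 8 without siControl 2 and 8 in all 10 fits. Medians per library were 1.79, 3.04 and 2.33. Psmb8, an inducible catalytic subunit of the immunoproteasome, was read at 28.2, 26.7 and 16.2 in control and at 846, 2209 and 1339 in siControl (5.95 ± 0.44, adjusted p = 4.3e-39). Psmb9, another such subunit, whose exons overlap those of Tap1 on the opposite strand, was read at 20.7, 19.0 and 25.3 against 341, 1308 and 516 (5.06 ± 0.53, adjusted p = 1.8e-19). Psmb10, the last of the inducible subunits, was read at 241, 219.9 and 238 against 1310.5, 7525 and 2893 (4.07 ± 0.55, adjusted p = 5.8e-12). H2-K1, a class I heavy chain with close paralogs, was read at 301, 271 and 282 against 1147, 3956 and 1687 (2.99 ± 0.45, adjusted p = 9.7e-10). In each of the 4 siControl 2 was the highest library and siControl 1 the lowest, and the groups did not overlap.

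Nucleic acid sensors and the genes that process or load small RNAs were counted as separate lists. Of the 9 tested members of the list of sensors and adaptors none was called higher. Other sensors were counted with the interferon-stimulated genes, among them Zbp1 and Ddx58 (RIG-I). Both were called higher, Ddx58 at a log2 fold change of 1.64. Cgas, the cytosolic DNA sensor, was called lower at 136, 107 and 107 against 53.4, 35.5 and 56.3 (-1.26 ± 0.34, adjusted p = 0.00097). This call was lost with edgeR, with limma-voom and with control 1, 2 or 3 left out. It was also lost with the trends removed, where the log2 fold change of Cgas was -0.99. Of 12 genes of the RNA interference machinery 3 were called lower (8.95% over all tested genes), namely Ago1 (-1.74 ± 0.39, adjusted p = 7.6e-05), Dgcr8 (-1.47 ± 0.32, adjusted p = 3.1e-05) and Drosha (-1.35 ± 0.24, adjusted p = 4.5e-07). These are an Argonaute protein and both parts of the nuclear microRNA processor. The list's median of -0.73 became -0.15 with the trends removed, its transcripts being long (median 7705 bases), and Drosha was the member called in all 10 fits. Of 14 tested inflammatory cytokines and receptors 1 was called higher and 2 lower (median -0.41), which is near the 21.2% called over all tested genes, and 4 were lower with the trends removed. Csf1, the macrophage growth factor, was read at 11854, 11631 and 12208 against 5138, 4103 and 4510.2 (-1.38 ± 0.18, adjusted p = 4.9e-13), and Il1rl1, the interleukin-33 receptor, at 710.2, 583 and 689 against 281, 155 and 142 (-1.77 ± 0.33, adjusted p = 1.3e-06). Cxcl1, a neutrophil chemokine, was called higher (1.55 ± 0.34, adjusted p = 4.8e-05) but not with the trends removed.

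Cell cycle genes were lower, in siControl 1 as in the other two. Of 29 tested mitosis genes 18 were called lower and none higher (median -1.21, and -1.19, -1.59 and -1.16 by library), and 20 were called lower with the trends removed and 16 without siControl 2. Prc1, which bundles the microtubules of the central spindle, was read at 5069, 4598 and 5334 in control and at 1214, 989 and 1089 in siControl (-2.19 ± 0.19, adjusted p = 2.7e-29). Foxm1, the transcription factor of the G2 and M phase program, was read at 2993, 2874 and 2781 against 863, 489.9 and 534 (-2.19 ± 0.28, adjusted p = 3.8e-13). Anln, an actin-binding protein of the cleavage furrow, and Cenpe, a kinetochore motor, fell by 2.19 and 2.14 on the log2 scale, and all 4 were called in all 10 fits together with 10 further members. Of 32 genes of DNA replication 15 were called lower and none higher (median -0.78), 16 with the trends removed and 16 without siControl 2. Uhrf1, which hands hemimethylated DNA to the maintenance methylase, was read at 3773, 3825 and 4029.5 against 1148, 1098 and 1019.7 (-1.83 ± 0.16, adjusted p = 4.2e-27), and Cdc6, a loader of the replicative helicase, had one of -1.59 ± 0.31 (adjusted p = 3.1e-06). Pola1, the catalytic subunit of DNA polymerase alpha, was read at 1643, 1574 and 1564 against 509, 137 and 297, and its call was lost with edgeR (adjusted p = 0.012). In bulk RNA fewer cells of a kind and less RNA per cell cannot be told apart.

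Genes of ribosome biogenesis were lower too. Of 21 ribosome biogenesis genes 11 were called lower and none higher (median -1.31), 15 with the trends removed and 14 without siControl 2. Rrp12, a factor of pre-ribosome export, was read at 1053, 963 and 1122 against 301, 272 and 301 (-1.84 ± 0.19, adjusted p = 2.9e-20), and Srm, spermidine synthase, at 2906, 2358 and 2854 against 472, 1035 and 736 (-1.86 ± 0.33, adjusted p = 2.4e-07). Mybbp1a, a nucleolar repressor, was called lower but not with edgeR (adjusted p = 0.016). Of 25 tested genes of the integrated stress response 13 were called lower and 2 higher (median -1.13, and -1.46, -0.96 and -0.85 by library). The 3 members with the largest falls encode proteins that take up or make amino acids. Slc7a5, the large neutral amino acid transporter, was read at 4571, 4210.1 and 4444 against 845, 734 and 727 (-2.52 ± 0.17, adjusted p = 4.6e-45). Slc7a1, the arginine and lysine transporter, was read at 1766, 1940.3 and 2033 against 349, 244 and 296 (-2.69 ± 0.22, adjusted p = 5.1e-31). Asns, asparagine synthetase, changed by -2.08 ± 0.24 (adjusted p = 5.1e-16). Ddit4, an inhibitor of mTORC1 that many stresses induce, went the other way, from 885, 961 and 962 to 8270.0, 6875 and 10217 (3.18 ± 0.22, adjusted p = 2.8e-42). All 4 were called in all 10 fits.

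The DESeq2 counts of the next lists stand against 12.2% called higher and 8.95% called lower over all tested genes. Of 14 tested genes of a list of FoxO factors and quiescence, 5 were called higher and 2 lower (median 0.73). Here edgeR called 2 in each direction, the same counts as in all 10 fits. Pik3ip1, an inhibitor of PI3-kinase, was read at 114, 128 and 123 against 489, 504 and 527 (2.06 ± 0.20, adjusted p = 1.4e-21). Irs2, an adaptor of the insulin receptor, was read at 665, 777 and 737 against 226, 134 and 149.9 (-2.09 ± 0.28, adjusted p = 4.4e-12). Txnip, an inhibitor of thioredoxin and of glucose uptake, spread from 5052 in siControl 1 to 21735 in siControl 2 with 8104 in siControl 3, against 2346 to 2465 in control, and its call was lost with edgeR (adjusted p = 0.018). Of 16 p53 targets 6 were called higher and none lower (median 0.31). Bbc3, the BH3-only protein Puma, was read at 223, 254 and 213 against 697, 1462 and 1352 (2.35 ± 0.33, adjusted p = 9.5e-11), and Fas, a death receptor, rose by 1.45 ± 0.25 (adjusted p = 1.0e-07). Bax, the pore-forming effector, was read at 2883, 2874 and 2853 against 5810.2, 25341 and 11105, and its log2 fold change of 2.29 became 0.93 with the trends removed. Of 13 targets of the oxidative stress factor NRF2 5 were called lower and 1 higher (median -0.54), among them Gclm, a subunit of the first enzyme of glutathione synthesis (-1.86 ± 0.22, adjusted p = 1.2e-15), and Srxn1, sulfiredoxin (-1.62 ± 0.16, adjusted p = 1.8e-20). Of 16 immediate early genes 4 were called lower and 2 higher, and edgeR called 1 lower and 0 higher. Klf4 was read at 1091, 1277 and 1235 against 445, 347 and 370.4 (-1.63 ± 0.21, adjusted p = 3.0e-13), and the higher calls, Fos and Junb, were lost with the trends removed. None of 16 circadian genes was called by DESeq2 (median 0.06), by edgeR or with the trends removed. An unadjusted DESeq2 p below 0.05 was seen for 9 of them, near the share over all tested genes (6664 of 13613).

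Among targets of factors that respond to actin, the called genes were nearly all lower, against 12.2% called higher and 8.95% lower over all tested genes. Of 23 tested SRF and contractile genes 9 were called lower and 1 higher (median -0.85), and 12 were lower with the trends removed and 12 without siControl 2, but edgeR called 2 lower, and 2 were called in all 10 fits. Fhl1, a LIM domain protein of stress fibres, was read at 445, 387 and 436 against 93.3, 73.6 and 85.0 (-2.32 ± 0.24, adjusted p = 1.3e-20). Flna, the actin crosslinker filamin A, was read at 50573, 49427 and 49555 against 15275, 6867 and 17426, and was not called by edgeR (adjusted p = 0.011). Of 11 YAP and TEAD targets 4 were called lower and none higher (median -0.62). Ccn2, connective tissue growth factor, was read at 31216, 29628 and 32049 against 6397, 7491 and 7703 (-2.11 ± 0.17, adjusted p = 1.5e-31), and Amotl2, a feedback inhibitor of YAP, at 5857, 6195 and 6494 against 1442, 1035 and 1110.4 (-2.37 ± 0.21, adjusted p = 3.5e-26). With the trends removed 3 stayed called and the list's median was -0.14.

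Matrix genes were called in both directions, as were all tested genes (12.2% higher and 8.95% lower). Of 17 collagens 5 were called lower and 1 higher, but 2 and 1 by edgeR or with the trends removed and 3 and 3 without siControl 2, and the median log2 fold change was 0.29, while the per-library medians were 0.06, -0.58 and -0.17. Col5a3, a fibril-regulating chain, changed by -1.36 ± 0.18 (adjusted p = 3.9e-12), and Col6a2, a chain of the pericellular collagen VI, rose from 10585, 10819 and 10032 to 25183, 27872 and 25669.9 (1.32 ± 0.15, adjusted p = 9.7e-16). Col12a1 was called lower but not with the trends removed, where its log2 fold change was -0.93. Of 17 matrix glycoproteins and crosslinking enzymes 5 were called lower and 1 higher, and edgeR called 3 lower. Thbs1, thrombospondin 1, was read at 104629.9, 115572 and 115216 against 47210.2, 30708 and 33962 (-1.58 ± 0.24, adjusted p = 8.2e-10), and Tnc, tenascin C, at 1395, 1714 and 1517 against 396, 159 and 173 (-2.66 ± 0.39, adjusted p = 3.5e-10). Among 13 proteases and inhibitors the stromelysin Mmp11 went from 832, 1079.7 and 989 to 4227, 7111 and 5419 (2.53 ± 0.27, adjusted p = 1.0e-18) and the collagenase Mmp13 from 29.2, 29.5 and 26.4 to 165, 112 and 145 (2.32 ± 0.34, adjusted p = 2.7e-10). Timp3 was the only member called lower, and 2 were with the trends removed.

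Among lysosomal and mitochondrial genes those called were nearly all higher, often most so in siControl 2. Over all tested genes 12.2% were called higher and 8.95% lower. Of 24 lysosome genes 8 were called higher and none lower (median 0.79), 5 with the trends removed, 5 by edgeR and 6 without siControl 2. Ctsa, a carboxypeptidase that protects lysosomal enzymes, was read at 4846, 4925 and 4959 against 12030.1, 12012 and 11894 (1.29 ± 0.14, adjusted p = 1.3e-17), level across the siControl libraries, whereas Grn, the progranulin gene, was read at 4697, 4794 and 4628 against 8080.0, 28133 and 11045 and was not called by edgeR (adjusted p = 0.027). Npc2, which carries cholesterol out of the lysosome, was read at 6193, 6305 and 5959.7 against 13892, 30277 and 19688 (1.79 ± 0.32, adjusted p = 3.3e-07). Of 24 nuclear genes of oxidative phosphorylation, whose transcripts are short (median 977 bases), 11 were called higher and none lower. This count is near the share among short genes at large. In the shortest of the 8 length groups (204 to 1367 bases) 42.8% of tested genes were called higher. The list's medians were 0.32, 1.71 and 0.95 in siControl 1, 2 and 3. With the trends removed 9 members were called higher, against 12.07% of that shortest group, and 4 were called in all 10 fits. Ndufa1, a subunit of complex I, was read at 373, 415 and 393 against 1300.3, 5517 and 2440.3 (2.97 ± 0.48, adjusted p = 1.9e-08). Of the 13 protein genes of the mitochondrial genome mt-Co2 was called higher. With the trends removed 0 were called, and the list's median of 0.41 became -0.32. Of 37 tested canonical histones 7 were called higher and none lower, and edgeR called 2 higher. With the trends removed 6 of 49 tested were called higher and 3 lower, and there too the median changed sign, from 0.54 to -0.22. In sterol synthesis 4 of 24 were called higher, near the 12.2% over all tested genes, and edgeR called 0 of them. The largest change was that of Tm7sf2 (2.11 ± 0.46, adjusted p = 3.3e-05). Acly, which makes the acetyl-CoA used for lipids, was read at 4853, 5097 and 4931 against 1159, 477 and 841 (-2.59 ± 0.34, adjusted p = 2.0e-12). Of 24 genes of glycolysis and hypoxia 5 were called higher and 1 lower, but 3 and 3 with the trends removed and 4 and 2 without siControl 2. Over all genes tested with the trends removed 7.57% were called higher and 8.25% lower. Those called higher in all 10 fits were 3, among them Bnip3, a mitophagy receptor (1.30 ± 0.20, adjusted p = 1.1e-09). Of 19 endoplasmic reticulum chaperones 1 was called higher and 1 lower, and of 12 heat shock genes 2 were called lower, none of them in all 10 fits.

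**Figure D4:**
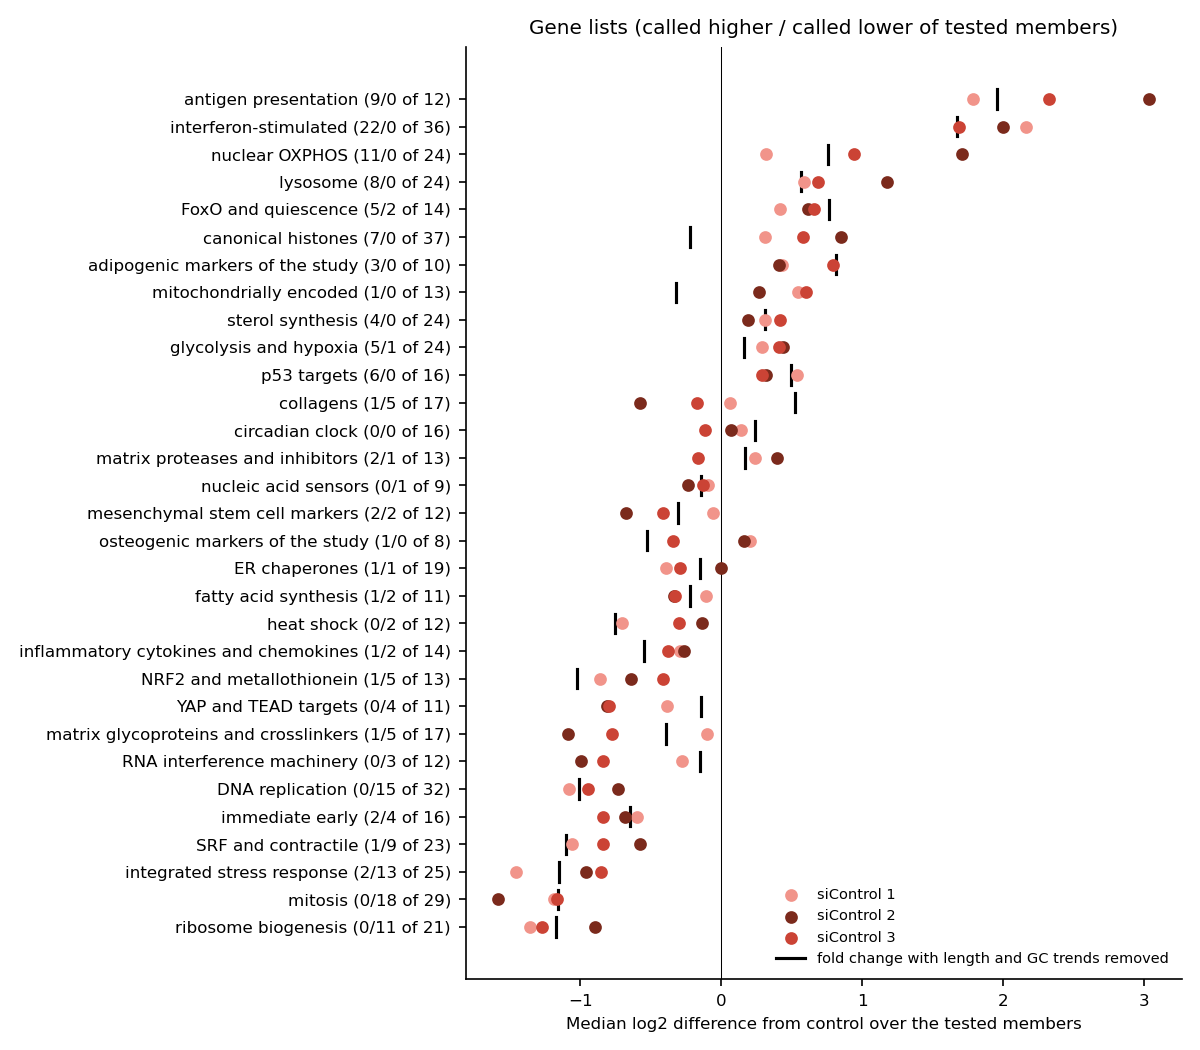
For each gene list with at least 7 tested members, circles give the median log2 difference from the mean control level in siControl 1, 2 and 3, and the black bar gives the median log2 fold change with length and GC trends removed. The counts called higher and lower by DESeq2 stand beside each name. Interferon-stimulated genes lie between 1.69 and 2.17 in all 3 libraries and mitosis genes between -1.59 and -1.16, whereas nuclear oxidative phosphorylation genes run from 0.32 to 1.71.

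Of 12 tested MSC markers 2 were called higher and 2 lower, against 12.2% and 8.95% over all tested genes. Vcam1, an adhesion molecule of marrow stroma, was read at 1188, 1121 and 1079.6 against 3233, 2123 and 2615 (1.23 ± 0.23, adjusted p = 1.5e-06), and Cd44, the hyaluronan receptor, at 2757, 2809.6 and 2735 against 866, 846 and 789.6 (-1.73 ± 0.16, adjusted p = 2.1e-25). Both were called in all 10 fits, while Ly6a was lost with the trends removed and Nes with limma-voom. The adipogenic and osteogenic markers were taken from the study that made these libraries, and their counts are not independent evidence of a direction. Of 10 adipogenic markers 3 were called higher, namely Adhfe1, a mitochondrial dehydrogenase (13.2, 11.4 and 9.12 against 115, 94.6 and 111), Fabp4, a fatty acid carrier, and Adipoq, and the calls of Fabp4 and Adipoq were lost with the trends removed. Of 8 osteogenic markers 1, Rgs2, was called higher, near the 12.2% over all tested genes, and none lower. Among markers of other cell types none was called for macrophages (5 of 13 tested), endothelium (2 of 10 tested) or glia and neurons (4 of 6 tested), and no blood or muscle marker was abundant enough to be tested. Krt19, a keratin, was called higher (2.05 ± 0.44, adjusted p = 3.6e-05), as was the chondrocyte factor Sox9 (1.40 ± 0.29, adjusted p = 1.6e-05), while Col2a1 was lower at 46.1, 41.9 and 51.7 against 7.63, 21.0 and 9.55.

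The other 4 groups supplied libraries that the comparison had not used, 6 of them transfected (siArp4 and siArp4+CK666) and 6 not (CK666 and CytoD). With all 18 libraries scaled together, the 6 transfected libraries all lay above the 6 untransfected ones for 669 of the 1667 genes called higher (40.1%), against 16.8% of all tested genes. They all lay below for 499 of the 1219 genes called lower (40.9%), against 16.8%. Knockdown of Arp4 and the drugs differ between these libraries as well, and length trends are present in siArp4, so their part was not tested. By list, the share was 13 of the 22 called interferon-stimulated genes, 7 of the 9 of antigen presentation, 18 of the 18 of mitosis and 9 of the 15 of DNA replication, but 1 of the 11 of ribosome biogenesis and 2 of the 13 lower genes of the integrated stress response. Cell cycle genes were below control in the untransfected drug groups too. Median log2 differences of mitosis genes were -1.21 in CK666, -1.05 in CytoD, -1.25 in siControl, -2.88 in siArp4 and -4.81 in siArp4+CK666. Those of DNA replication were -1.17, -1.12, -0.93, -1.58 and -2.32 in the same order.

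The levels of single genes differed between the transfected groups. On the scale of all 18 libraries Oasl2 lay between 1.89 and 32.2 in the control, CK666 and CytoD libraries, and its means were 226 ± 43.6 (SD, n = 3) in siControl, 249 ± 31.6 in siArp4 and 206 ± 44.7 in siArp4+CK666. The 3 transfected groups overlapped each other and none overlapped an untransfected group. Ddit4 had means of 933 in control and 8307 in siControl, and of 11906 in siArp4 and 13968 in siArp4+CK666. Psmb8 differed: its mean was 1439.6 in siControl, where the lowest library held 833, and 86.1 in siArp4 and 126 in siArp4+CK666, which lay beside the 106 of CytoD. Timp3 was at 59.7 in siControl and at 1289.7 in siArp4, which overlapped the 1246 of control, but at 299 in siArp4+CK666 and 499 in CytoD. Ppme1 was at 153 in siControl and Sema3c at 66.7, and their means in siArp4 were 2118 and 1839, above the 1205 and 484 of control. Foxm1 had means of 2873 in control, 1264 in CK666, 1430 in CytoD, 618 in siControl, 257 in siArp4 and 72.2 in siArp4+CK666. The comparisons behind these levels share the control or siControl libraries, so the levels are set side by side without a test.

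**Figure D5:**
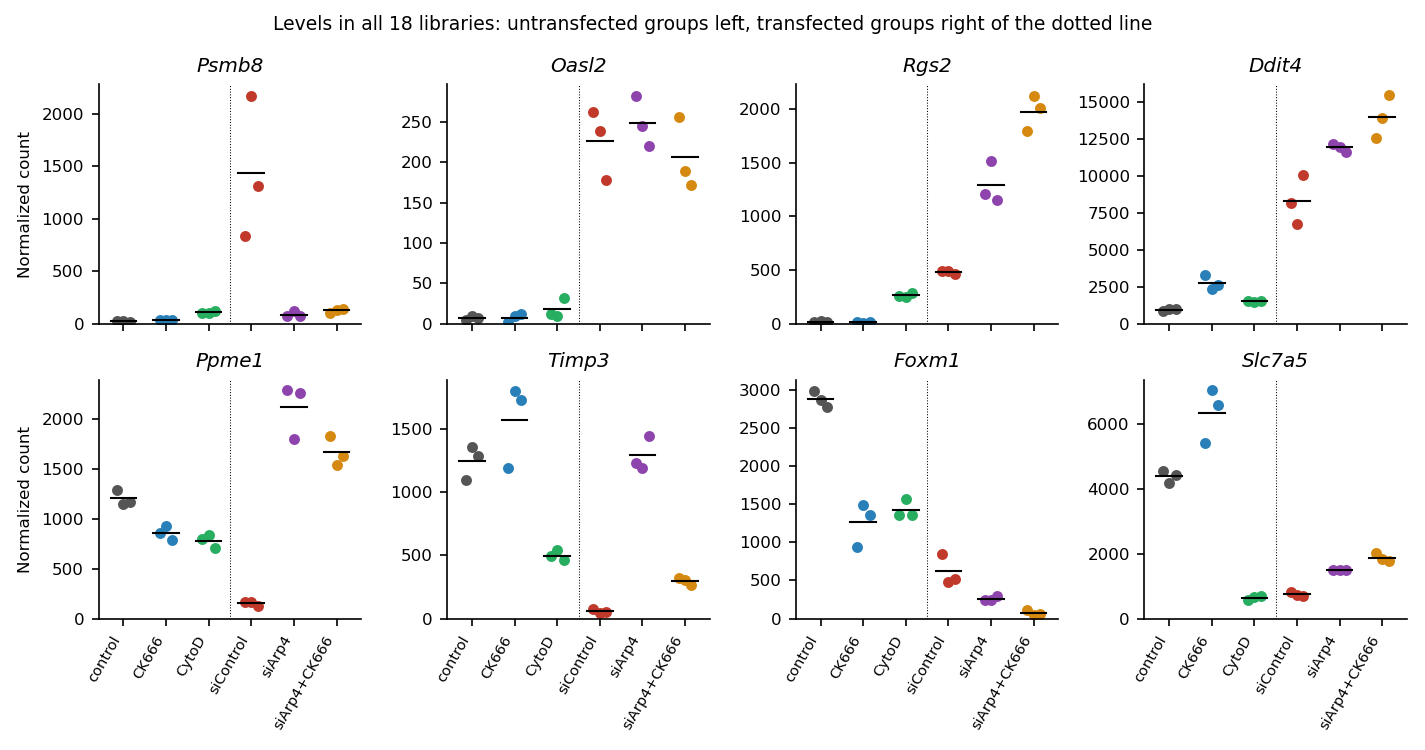
Normalized counts of 8 genes in all 18 libraries, scaled together, with 3 points per group and a line at the group mean. The dotted line divides the untransfected groups on the left from the transfected groups on the right. Oasl2, Rgs2 and Ddit4 are higher in all transfected libraries than in any untransfected library, Psmb8 is high in siControl libraries, and Timp3 is as high in siArp4 as in control.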

How the data were processed

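RNA of mouse marrow MSC was sequenced as unstranded paired-end libraries. The authors deposited estimated counts per gene, made with Salmon (version 1.2.1 per the submitters' notes) on build GRCm38 with the GENCODE vM25 annotation named in the methods. The sources read for this work do not say how transcripts were summed to genes. No nonzero value was whole, and rounding to whole numbers moved a library total by at most 277. All 18 columns matched a sample by label. Symbols, lengths and coordinates came from GENCODE vM21, which shares the build and matched 54094 identifiers (253 did not match), and promoters came from RefSeq (GRCm38.p6).

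The 3 siControl and 3 control libraries were compared with DESeq2 (1.42.0, R 4.3.3), a two-sided Wald test with Benjamini-Hochberg adjustment, called at an absolute log2 fold change over 1 and an adjusted p below 0.01, the thresholds named in the methods. Errors after ± are SE of the fit unless called SD. The methods describe distinct preparations, but the labels tie no library to a mouse or culture, so p-values measure only the spread between these libraries. Totals of 19975326 to 21821871 per library limit precision by counting error only for rare transcripts.

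Length and GC trends were removed per library by a smooth fit (mgcv 1.9.3, basis dimension 6) on genes averaging at least 100 normalized counts, entered as offsets. Alternatives were edgeR (4.0.16), limma-voom (3.58.1), other scalings and filters, a replicate block and each library left out. The fits were also run on simulated data, and no result given here rests on the outcome. Members and gene lists were chosen with earlier results of these data known. Named genes were the 12 largest rises and falls among called genes with a mean of at least 100 and no overlap between groups, the 8 most variable within siControl, Actl6a, up to 4 called members per list with the largest change, and cell type markers. A gene that this rule names is not reported here.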

Additional observations from a re-analysis of the deposited data

How the results depend on the processing

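The count of called genes depended on how the spread of siControl was modelled. In place of 2886 genes, edgeR called 1198, limma-voom 1481, a test against a 2-fold change 323, and siControl 1 alone against the controls 1801. In place of 1667 higher genes these gave 597, 849, 175 and 735, and removing the length and GC trends gave 1095, or 875 without siControl 2 as well. In place of 1219 lower genes edgeR gave 601, limma-voom 632, a test against a 2-fold change 148, and no fold change minimum 1836. Leaving out each library in turn gave 1938 to 4449 called genes, 1084 to 2359 higher and 854 to 2090 lower, with each upper end reached without siControl 1 and each lower end without control 3. In each of these settings 0 genes were called in the direction opposite to that of the comparison as reported. The siControl spread was 1.88 to 3.34 times that of control with 1 library left out. On log2 CPM it was 2.07 times, and 1.83 times with the trends removed on that scale. Of the settings tried for named genes 2514 kept the call, 281 lost it, 15 gained it and 1 turned the sign of the fold change. The last was Rpgrip1 with siControl 1 alone, at a log2 fold change of -2.49. Same-numbered libraries did not deviate together (correlations of -0.18, -0.10 and -0.01), so the numbers were taken as names. A replicate block gave 2626 called genes (1334 higher and 1292 lower), and with the trends removed 2093, of them 890 higher. Depth was similar in all 6 libraries, and fold changes of genes near the floor of 3 counts could not be resolved.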

Other observations

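Gene families defined by symbol, chosen after the data were seen, showed how far short and long transcripts moved apart. Over all tested genes 12.2% were called higher and 8.95% lower. Of 81 tested cytosolic ribosomal protein genes 38 were called higher and none lower by DESeq2, with a median log2 fold change of 1.22 and medians of 0.19, 1.96 and 1.01 in siControl 1, 2 and 3. Their median transcript length was 860 bases, and with the length and GC trends removed 12 were called higher with a median of 0.38. Mitochondrial ribosomal proteins went from 20 of 78 called higher to 6 higher and 5 lower, and proteasome subunits from 10 of 39 higher to 4 higher and 2 lower. Small nucleolar RNA host genes, which carry guide RNAs of ribosomal RNA modification in their introns, had 6 of 13 called higher (median 1.35), and 3 with the trends removed.

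Kinesins, the motors of spindles and axonal transport, had 15 of 31 called lower and 1 higher (median -0.97), and 13 lower with the trends removed. Of 17 tRNA synthetases, which charge tRNAs with amino acids, 6 were called lower, and 7 with the trends removed. Laminins of the basement membrane had 4 of 7 called lower and 1 with the trends removed. Among 346 zinc finger genes with a Zfp symbol 12 were called higher and 13 lower, both below the shares of 12.2% and 8.95% over all tested genes.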
